A study of Mus musculus with 4 samples.

Results

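10 transcription factors of the natural killer T (NKT) and T lineages were followed here through receptor stimulation: Zbtb16, Hivep3, Tcf7, Lef1, Bcl11b, Id2, Id3, Tox, Runx1 and Ets1. They were taken by gene symbol from the deposited count table, and all 10 of 10 were among its 12020 usable genes. The set was chosen by function and selected on its measured counts in the resting against the tetramer libraries, with that difference already in view. The difference is therefore given below as a description. Members called by the fit over all genes are only counted, beside the share of all genes called, and nothing is read from that count. NKT cells had been sorted by high GFP from C57BL/6 mice aged 10 to 12 weeks that carried a Vα14 receptor transgene (Va14 Tg) and GFP at the Cxcr6 locus (cxcr6gfp/+). All libraries thus came from receptor-transgenic, reporter-heterozygous cells gated on the reporter, whatever their treatment. The 2 tetramer libraries were from cells held on plates coated with mouse CD1d tetramers carrying the lipid PBS57, and the 2 resting libraries from cells left unstimulated. No source used here gives the time in culture. Libraries are called 4 and 5 after the numbers of the deposited columns. Whether those of one group derive from different mice is not stated, so p-values measure the spread between libraries, which may be technical.

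NKT cells are T cells whose semi-invariant receptor recognises lipids presented by CD1d. Zbtb16 encodes PLZF, the BTB zinc finger factor that gives NKT cells their innate-like effector programme during thymic development, and Hivep3 encodes a large zinc finger protein that regulates NKT cell development. Tcf7 (TCF1) and Lef1 are HMG box factors that bind the same DNA motif and are known for early T cell development and for naive and stem-like states. Bcl11b holds T cell identity, Id2 and Id3 block the E proteins by forming dimers with them that do not bind DNA, Tox is an HMG box factor of T cell development, and Runx1 and Ets1 bind many T cell enhancers and promoters.

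The promoters of Hivep3 and Tcf7, which stood farthest apart between the groups among the members tested, are shown. Those of Bcl11b and Lef1, which were lower, are added. Some of them hold motif letters of the TCF/LEF and ETS factors in the set. RefSeq windows of GRCm38.p6 were matched by symbol for 7 of the 10 genes, with 12 start sites. The windows of Zbtb16, Tox and Ets1 were not matched. Each sequence gives the 250 bases before a start site, 5′ to 3′. Capitals mark every match, on either strand, to 5 searched motifs: CTTTGA (TCF/LEF), TGTGGT (RUNX), GGAAGT (ETS), CANNTG (the E box bound by E proteins) and GCGTGGG (Egr).
Hivep3, chr4:119814428-119814677, plus strand: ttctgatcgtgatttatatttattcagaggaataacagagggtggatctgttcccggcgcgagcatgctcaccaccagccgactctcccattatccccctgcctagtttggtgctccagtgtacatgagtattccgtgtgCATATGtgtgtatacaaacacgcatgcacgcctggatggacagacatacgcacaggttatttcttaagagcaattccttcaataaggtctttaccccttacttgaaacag
Tcf7, start 2, chr11:52282596-52282845, minus strand: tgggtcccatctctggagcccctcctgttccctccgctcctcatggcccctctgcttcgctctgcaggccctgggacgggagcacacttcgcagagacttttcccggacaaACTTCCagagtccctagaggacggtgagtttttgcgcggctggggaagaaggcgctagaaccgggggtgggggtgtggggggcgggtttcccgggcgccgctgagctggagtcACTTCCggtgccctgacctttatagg
Lef1, start 1, chr3:131110047-131110296, plus strand: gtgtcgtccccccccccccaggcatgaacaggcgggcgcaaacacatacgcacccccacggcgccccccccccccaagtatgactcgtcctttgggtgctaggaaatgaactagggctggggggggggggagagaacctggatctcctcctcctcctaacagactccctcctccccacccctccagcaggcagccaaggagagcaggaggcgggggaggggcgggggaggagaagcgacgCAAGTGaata
Lef1, start 4, chr3:131156044-131156293, plus strand: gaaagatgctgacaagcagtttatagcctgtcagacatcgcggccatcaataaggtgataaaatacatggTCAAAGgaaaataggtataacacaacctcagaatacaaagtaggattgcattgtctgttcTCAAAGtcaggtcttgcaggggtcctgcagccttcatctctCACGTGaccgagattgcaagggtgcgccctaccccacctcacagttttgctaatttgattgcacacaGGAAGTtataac
Bcl11b, chr12:108003415-108003664, minus strand: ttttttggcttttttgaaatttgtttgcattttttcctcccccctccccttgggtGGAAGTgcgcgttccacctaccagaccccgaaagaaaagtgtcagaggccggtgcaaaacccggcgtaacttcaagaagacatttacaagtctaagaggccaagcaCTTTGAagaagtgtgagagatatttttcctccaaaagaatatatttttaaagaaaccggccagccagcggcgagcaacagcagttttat

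The capitals in the Hivep3 window are 1 E box, which begins 110 bases before the start. For Tcf7 and Lef1 the windows printed were picked after the matches were seen. Tcf7 start 1, not printed, held 1 E box at 159 bases and no other match, Lef1 start 2 held 1 E box and Lef1 start 3 held 2 E boxes, with no other match in either. In the printed Tcf7 window the capitals are 2 ETS matches, both on the opposite strand, 139 and 26 bases before the start. The window of Lef1 start 1 holds 1 E box, the same site as in the overlapping window of start 2. That of start 4 holds 2 TCF/LEF matches on the opposite strand, at 180 and 120 bases, with 1 ETS match and 1 E box. In Bcl11b there was 1 TCF/LEF match at 89 bases and 1 ETS match at 195 bases. Such letters are common: among 32851 windows of this length, 13.8% held CTTTGA, 14.0% TGTGGT, 19.7% GGAAGT, 66.2% CANNTG and 4.30% GCGTGGG. No printed motifs overlapped, and no matched window of the set, printed or not, held TGTGGT. The counts do not show which start site was used, and a match is not a binding site.

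Library totals lay between 4168438 and 5495521 counts. Correlation of log2 CPM (counts scaled to library size with TMM factors) across genes was 0.926 between the resting libraries, 0.956 between the tetramer libraries and 0.787 to 0.838 between groups. Of 10 T cell receptor and Cxcr6 markers 9 were in the table, with a summed level of 2332 to 2732 CPM in the 4 libraries. That sum holds opposite differences. Cxcr6, the locus of the sorting reporter, fell from 1617 and 1102 to 414 and 718 CPM (adjusted p = 0.0190), a call lost without resting library 4 (0.111) or tetramer library 4 (0.346), and Cd3d was at 295 and 466 against 653 and 737 CPM (adjusted p = 0.0853). NKT1 markers summed to 1676 to 2182 CPM, a sum led by Il2rb (815 to 1457 CPM), and others of them went both ways. Klrb1c (the receptor NK1.1) fell from 114 and 174 to 2.86 and 13.6 CPM (adjusted p = 2.91e-06), and Cxcr3 and Ccl5 were also called lower. Nkg7 rose from 65.1 and 135 to 469 and 433 CPM (adjusted p = 0.000265), and Xcl1 was also called higher. Tbx21, Il2rb, Klrd1 and Fcer1g were not called. NKT2 markers summed to 431 and 493 CPM at rest and 898 and 580 CPM after stimulation (libraries 4 and 5). Among them Il4, Il13 and Izumo1r were called higher and Il17rb lower, while Gata3, Plac8 and Ccr4 were not called. The 5 of 9 NKT17 markers in the table summed to 76.2 and 91.5 CPM at rest and 40.1 and 44.9 CPM after stimulation. Tmem176a was called lower, Il23r and Tmem176b were not called, and Ccr6 and Il1r1 were not tested. Of the liver's own hepatocyte markers 3 of 8 were in the table, without Alb, Apoa1 or Apoa2. All 7 pancreatic islet markers were present, at a summed 270 and 990 CPM at rest (libraries 4 and 5) and 239 and 431 CPM after stimulation (libraries 4 and 5). Insulin transcripts led them, with Ins2 at up to 556 CPM and Ins1 at up to 275 CPM, both in resting library 5. The labels name liver as the tissue, and the extraction text names islets.

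The 10 factors went different ways. Hivep3 was scarce at rest and far higher after stimulation. Tcf7 was lower after stimulation and then the least abundant of the 10 by group mean, though Id3 was lower in tetramer library 5. Lef1 and Bcl11b were lower by smaller margins, and Id2, Runx1 and Ets1 differed by less than 1.5-fold. Of the 10, 5 had both tetramer libraries above both resting libraries, 3 had both below, and 2 overlapped. Over all 11312 genes tested, 31.6% lay higher in this way and 33.7% lower, 65.2% in all. The expression filter was passed by 9 of the 10, all but Id3. Among the 9, 1 was called higher (Hivep3) and 2 lower (Tcf7 and Lef1) in edgeR (quasi-likelihood, adjusted p below 0.05), where 14.3% of all genes tested were higher and 12.1% lower, 26.4% in either direction. Because the choice of members used this contrast, nothing is read from those counts. The median log2 fold change of the 9 was 0.43, and that of all genes tested was -0.06.

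**Figure D1:**
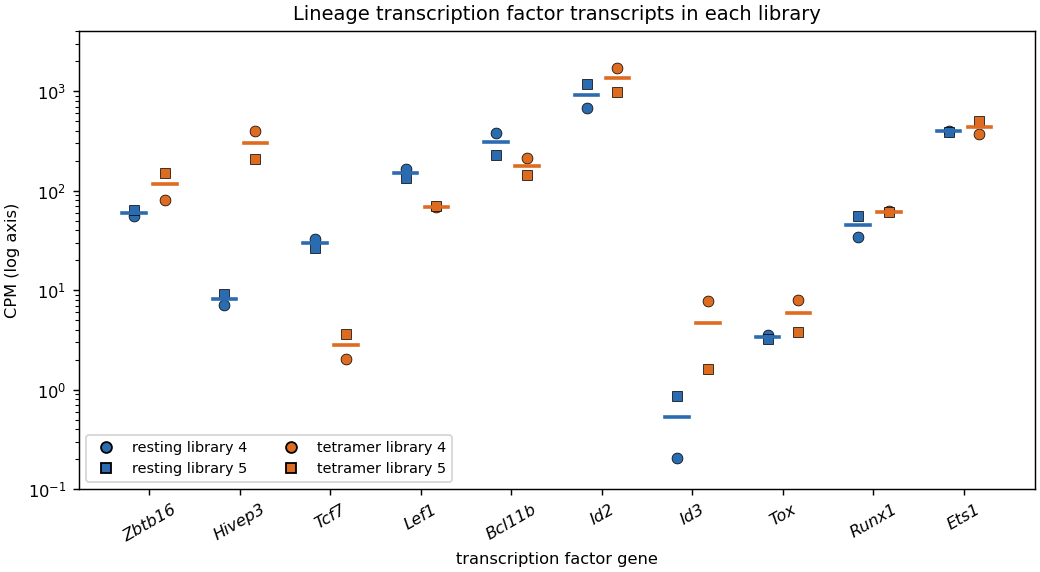
CPM of each of the 10 transcription factor genes on a log axis, with blue points for the resting and orange points for the tetramer libraries (circles library 4, squares library 5) and bars for group means. Hivep3 lies below Tcf7 in the resting libraries and above it in the tetramer libraries, while the points of Id2 and Ets1 overlap.

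Zbtb16, the gene of PLZF, was present in every library. Counts were 269 (resting library 4), 301 (resting 5), 396 (tetramer 4) and 752 (tetramer 5), or 55.7, 64.3, 81.0 and 152 CPM. Both tetramer libraries lay above both resting ones, yet they stood farther from each other (0.91 on the log2 scale) than tetramer library 4 stood from resting library 5 (0.33). The mean was 60.0 ± 6.08 CPM at rest and 117 ± 50.3 CPM after stimulation (SD, n = 2 each), with a log2 fold change of 0.96 ± 0.39 (SE). Without tetramer library 5 the log2 fold change was 0.44, and without tetramer library 4 it was 1.36.

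Hivep3 showed the widest difference of the 10. Its counts were 34 and 43 at rest and 1943 and 1021 after stimulation, which is 7.04 and 9.19 CPM against 398 and 207 CPM. The 4 differences between a tetramer and a resting library ran from 4.49 to 5.82 on the log2 scale, while the libraries within a group differed by 0.38 (resting) and 0.94 (tetramer). Group means were 8.12 ± 1.52 and 302 ± 135 CPM, a fold of 37.2. The log2 fold change of 5.21 ± 0.47 (SE) was the 26th highest of the 11312 genes tested. Leaving out single libraries kept it between 4.68 and 5.62. Its paralogs did not pass the test: on the log2 scale Hivep1 differed by 0.35 ± 0.42 (adjusted p = 0.571) and Hivep2 by 0.29 ± 0.43 (adjusted p = 0.645).

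Of the pair of HMG box factors with a shared motif, Tcf7 differed more than Lef1. Tcf7 had 159 and 123 counts at rest and 10 and 18 after stimulation, or 32.9 and 26.3 CPM against 2.05 and 3.64 CPM. The groups lay far apart, with between-library differences of -4.01 to -2.85 on the log2 scale. The mean was 29.6 ± 4.71 CPM at rest and 2.84 ± 1.13 CPM after stimulation, 10.4-fold lower, and the log2 fold change of -3.37 ± 0.57 (SE) was the 52nd lowest of all genes tested. With each library omitted in turn it lay between -3.83 and -3.00.

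Lef1 had 799 and 622 counts at rest and 335 and 345 after stimulation, or 166 and 133 CPM against 68.5 and 69.8 CPM. The tetramer libraries were nearly equal, and both lay below both resting ones. The means were 149 ± 23.1 and 69.2 ± 0.876 CPM, 2.16-fold lower after stimulation, with a log2 fold change of -1.11 ± 0.37 (SE) and a range of -1.23 to -0.93 without single libraries. The CPM ratio of Tcf7 to Lef1 within a library was 0.199 and 0.198 at rest (libraries 4 and 5) and 0.0299 and 0.0522 after stimulation (libraries 4 and 5). That ratio thus barely differed at rest and was lower in both tetramer libraries.

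Summed markers of several other cell types were also lower in the tetramer libraries. The CD8 T cell markers Cd8a and Cd8b1, both in the table, summed to 35.2 and 67.3 CPM at rest and 12.3 and 17.4 CPM after stimulation. B cell markers, 6 of 7 in the table (without Pax5), went from 49.3 and 74.4 to 29.9 and 33.6 CPM, and erythroid markers, 5 of 7, from 160 and 392 to 34.6 and 78.9 CPM. Hepatocyte (3 of 8), macrophage (3 of 10) and neutrophil (2 of 6) markers summed to at most 59.0 CPM in any library and were lower in both tetramer libraries. Cd4 was at 9.12 and 3.63 CPM in the resting and 15.3 and 9.91 CPM in the tetramer libraries. The dendritic and NK cell lists did not fall in both tetramer libraries. Dendritic cell markers, 5 of 7 in the table, summed to 264 and 266 CPM at rest and 78.6 and 272 CPM after stimulation (libraries 4 and 5). NK cell markers, 3 of 6, summed to 134 and 194 CPM at rest and 124 and 325 CPM after stimulation. In tetramer library 5 both sums lay above both resting libraries. The part of these cell types in the values of Tcf7 and Lef1 was not tested. In bulk RNA, fewer cells of a type and less RNA per cell cannot be told apart.

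Bcl11b, a zinc finger factor that holds T cell identity, was one of the more abundant members. It had 1849 and 1069 counts at rest and 1037 and 705 after stimulation, or 383 and 228 CPM against 212 and 143 CPM. The groups did not overlap, but resting library 5 and tetramer library 4 differed by only 0.11 on the log2 scale, less than the 0.75 between the resting libraries. Its log2 fold change was -0.79 ± 0.38 (SE), and -0.35 without resting library 4. With library totals in place of TMM factors it was -1.10. The CPM ratio of Zbtb16 to Bcl11b in a library was 0.145 and 0.282 at rest and 0.382 and 1.07 after stimulation, highest in tetramer library 5.

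At rest the inhibitors Id2 and Id3 stood at opposite ends of the set in level. Id2 had 3264 and 5467 counts at rest and 8377 and 4877 after stimulation, or 676 and 1168 CPM against 1714 and 987 CPM. The groups overlapped, since tetramer library 5 lay below resting library 5. The means were 922 ± 348 and 1350 ± 514 CPM, and the log2 fold change was 0.55 ± 0.40 (SE), with values of 0.11 without tetramer library 4 and 1.02 without resting library 5. Id3 had 1 and 4 counts at rest and 38 and 8 after stimulation, which is 0.207, 0.855, 7.78 and 1.62 CPM. Both tetramer libraries lay above both resting ones, and tetramer library 4 held most of the counts. The ratio of scaled summed counts was 8.90, with an exact (Clopper-Pearson) 95% interval of 3.55 to 28.7 that covers counting error only. Amplified reads that carry no molecular identifiers do not each stand for a molecule. The table lists no count below 1, so 1 count in resting library 4 is the lowest value it can hold. Without the expression filter the log2 fold change of Id3 was 3.09 ± 0.92 (SE).

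The remaining members differed little or were scarce. Tox had 17 and 15 counts at rest and 39 and 19 after stimulation, or 3.52 and 3.21 CPM against 7.98 and 3.84 CPM. Its groups did not overlap, while tetramer library 5 lay just above the resting pair. The log2 fold change was 0.81 ± 0.66 (SE), and 0.21 without tetramer library 4.

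Runx1 had 167 and 262 counts at rest and 302 and 299 after stimulation, or 34.6 and 56.0 CPM against 61.8 and 60.5 CPM. The spread between the resting libraries (0.69 on the log2 scale) exceeded the log2 fold change of 0.43 ± 0.40 (SE), which was 0.14 without resting library 4 and 0.84 without resting library 5. Ets1 had 1929 and 1826 counts at rest and 1807 and 2469 after stimulation, or 400 and 390 CPM against 370 and 499 CPM. The tetramer libraries lay on either side of the resting pair. The log2 fold change of Ets1 was 0.14 ± 0.36 (SE), which turned to -0.15 with library totals and to -0.09 without tetramer library 5.

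**Figure D2:**
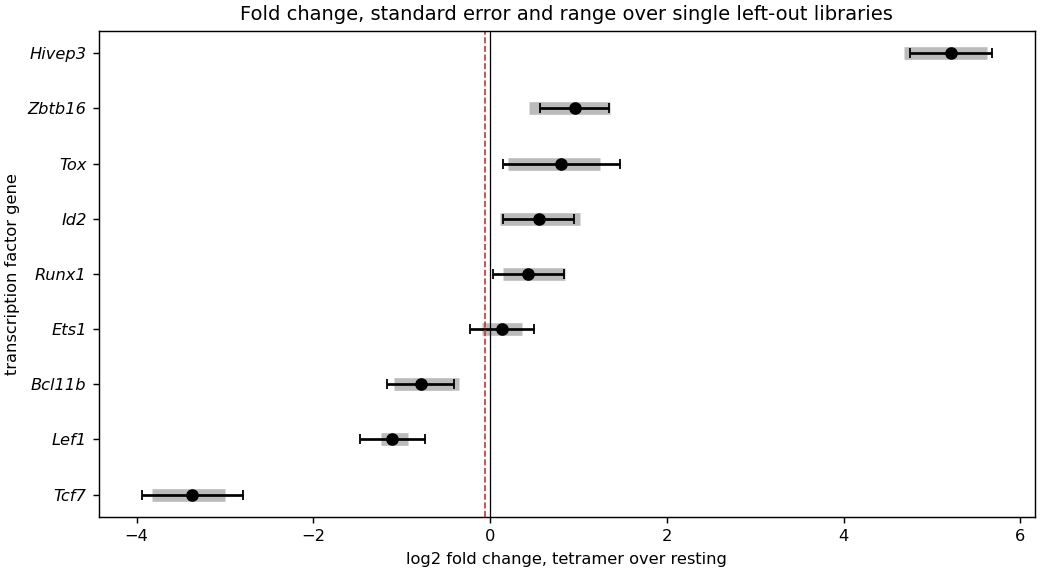
Log2 fold change (tetramer over resting) of the 9 members that passed the expression filter, with black bars for the standard error, grey bars for the range when each library was left out in turn, and a dashed red line at the median of all genes tested (-0.06). Hivep3 lies near 5.21 and Tcf7 near -3.37, and the grey bar of Ets1 crosses zero.

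Levels were compared between genes per length, as CPM per kilobase of the union of exons in the GENCODE M21 basic annotation. This annotation is not known to be the one the authors counted with. At rest the order was Id2 at 378 ± 143, Ets1 at 77.7 ± 1.31, Lef1 at 42.6 ± 6.58, Bcl11b at 37.7 ± 13.5, Zbtb16 at 11.4 ± 1.15, Tcf7 at 11.3 ± 1.79, Runx1 at 6.08 ± 2.03, Tox at 0.849 ± 0.0565, Hivep3 at 0.548 ± 0.102 and Id3 at 0.415 ± 0.358 CPM per kilobase (SD, n = 2). The neighbours Lef1 and Bcl11b, Zbtb16 and Tcf7, and Hivep3 and Id3 overlapped between libraries. After stimulation Id2 (554 ± 211) and Ets1 (85.5 ± 18.1) still led. Next came 4 genes that overlapped one with the next in order: Zbtb16 at 22.1 ± 9.51, Bcl11b at 21.9 ± 6.07, Hivep3 at 20.4 ± 9.12 and Lef1 at 19.7 ± 0.25. Below Runx1 (8.20 ± 0.125) stood Id3 at 3.68 ± 3.41, Tox at 1.49 ± 0.738 and Tcf7 at 1.08 ± 0.43, again overlapping in turn. Hivep3 thus moved from rank 9 to rank 5 and Tcf7 from rank 6 to rank 10.

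**Figure D3:**
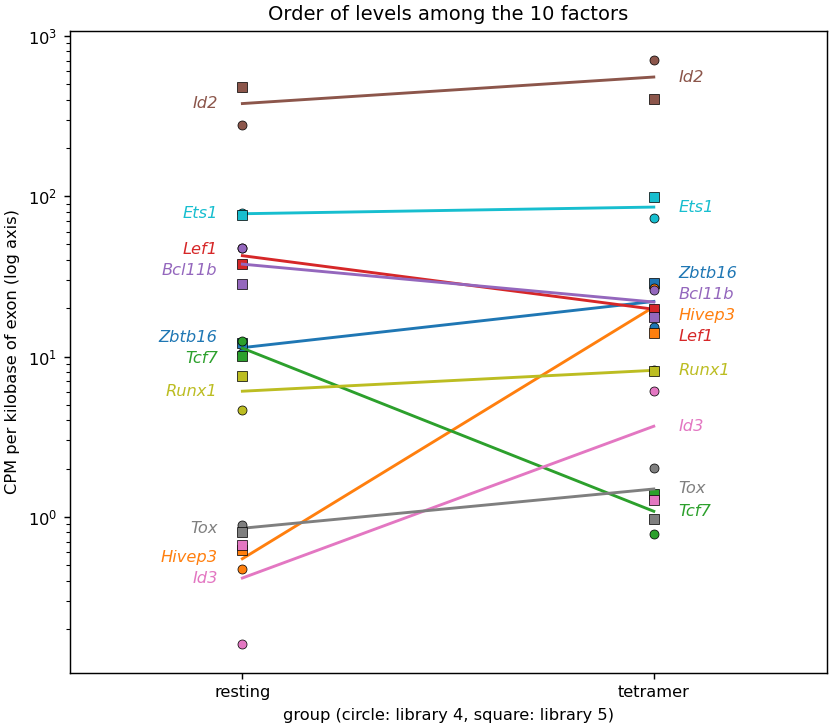
CPM per kilobase of exon on a log axis for the 10 genes in the resting and tetramer groups, with a line between group means and a point for each library. By group mean Hivep3 crosses from rank 9 to rank 5 and Tcf7 from rank 6 to rank 10, while Id2 and Ets1 stay first and second. Points of Tcf7 overlap those of Zbtb16 at rest and those of Tox after stimulation, but not those of Runx1 at rest.

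For 3 members the genes with the most similar profile were sought among 8857 named genes with a mean of at least 5 CPM, as the root mean square distance of centred log2 CPM over 4 libraries. Closest to Zbtb16 were Lrrc20 (0.03), Anxa6 (0.08) and Ncf1 (0.08). To Tcf7 they were Clec2i (0.13), Rasa3 (0.14) and Il18r1 (0.15), and to Id2 they were Nudt2 (0.05), Gnb2l1 (0.06) and Efhd2 (0.06). Il18r1, a subunit of the interleukin 18 receptor, had 425 and 310 CPM in the resting and 26.6 and 57.0 CPM in the tetramer libraries. With 4 libraries in 2 groups, many genes share such a profile.

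Relatives and partners of the 10 factors were taken from the fit over all genes. Their lists, too, were written with earlier results of these data known, so their counts describe these libraries and are no independent evidence of direction. Of 253 genes in 9 lists, 221 were in the table and 214 were tested. At the same edgeR threshold, 22 rose (14.3% of all genes tested did) and 39 fell (12.1% of all genes did). With library totals in place of TMM factors, which moved the median of all genes from -0.06 to -0.35 on the log2 scale, 16 rose and 56 fell, so each direction holds relative to TMM. Omitting tetramer library 4 left 10 and 13 calls, and omitting tetramer library 5 left 12 and 21. The median log2 fold change of the 214 genes was -0.32.

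The E proteins that Id2 and Id3 bind did not pass the test. Tcf12 averaged 57.7 ± 11.5 CPM in the resting and 38.4 ± 5.15 CPM in the tetramer libraries (adjusted p = 0.293), and the log2 fold changes of Tcf3 and Tcf4 were -0.99 ± 0.63 and -0.04 ± 0.48. Of 8 helix-loop-helix partners tested, 1 rose and 2 fell. The repressor Bhlhe40 rose by 2.49 ± 0.56 on the log2 scale (adjusted p = 0.00190), from 2.49 and 10.0 to 33.8 and 36.8 CPM. The LIM domain protein Lmo4 fell by 1.497, from 90.1 and 80.6 to 30.5 and 29.9 CPM (adjusted p = 0.00663), and its binding partner Ldb1 fell by 1.79 (adjusted p = 0.0174). The call of Lmo4 was lost without tetramer library 4 or 5 (log2 fold change between -1.55 and -1.40 over single omissions, adjusted p up to 0.0985). That of Ldb1 was lost without resting library 4 or tetramer library 5 (-2.39 to -0.90, adjusted p up to 0.259). Falls in this list numbered 0 with tetramer library 5 omitted and 1 with either library 4 omitted.

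Among 30 cofactors of TCF and LEF factors and genes of Wnt signalling, 0 rose and 4 fell, with a median of -0.36. The HMG box repressor Hbp1 fell from 209 and 145 to 24.3 and 41.3 CPM (log2 fold change -2.43 ± 0.40, adjusted p = 7.63e-05). Axin2, a feedback inhibitor and widely used target gene of β-catenin, fell from 10.4 and 12.6 to 1.84 and 2.83 CPM (adjusted p = 0.0111), and the Groucho corepressor Tle4 from 258 and 127 to 52.4 and 68.4 CPM (adjusted p = 0.00304). Axin2 was not called without tetramer library 4 or 5 (adjusted p up to 0.206 over single omissions, log2 fold change -2.62 to -1.99), nor Tle4 without resting library 4 or tetramer library 4 (adjusted p up to 0.0753, -2.07 to -1.06). The abundant members Csnk1d (adjusted p = 0.428) and Aes, also known as Tle5 (adjusted p = 0.191), did not pass. Ctnnb1, which encodes β-catenin, had a log2 fold change of -0.99 ± 0.38 (adjusted p = 0.0528). Omitting tetramer library 4 left 1 fall in the list, tetramer library 5 left 2 and resting library 5 left 7, and 1 gene rose when resting library 4 was omitted.

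Of 11 Runx family members, cofactors and modifiers, 0 rose and 1 fell, the kinase Hipk1, from 198 and 148 to 81.4 and 51.0 CPM (log2 fold change -1.39 ± 0.38, adjusted p = 0.00863). Its call was lost without tetramer library 5 (adjusted p up to 0.158 over single omissions), where 0 of the list fell, while 2 fell when either resting library was omitted. Runx3 (-0.52 ± 0.36), Runx2 (-1.01 ± 0.50) and the shared subunit Cbfb (-0.61 ± 0.47) did not pass, nor did the abundant Crebbp (adjusted p = 0.160, called only with library totals, 0.0459) and Pim1 (adjusted p = 0.0909).

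The ETS family of Ets1 went both ways, with 3 of 18 higher and 5 lower. Etv6, a repressor, rose from 5.39 and 2.99 to 57.9 and 42.3 CPM (log2 fold change 3.57 ± 0.52, adjusted p = 1.74e-05), and Etv3, also a repressor, from 6.22 and 4.06 to 18.8 and 34.0 CPM (2.35 ± 0.55, adjusted p = 0.00268). Elf4 fell from 343 and 221 to 90.2 and 148 CPM (adjusted p = 0.0177), Elf1 from 159 and 124 to 39.3 and 67.0 CPM (adjusted p = 0.00854), and Spib, a factor of B cells and plasmacytoid dendritic cells, from 12.0 and 27.1 to 3.48 and 4.85 CPM (adjusted p = 0.00691). The rise of Etv6 was called with each library left out, and that of Etv3 was not without tetramer library 5 (adjusted p up to 0.0917, log2 fold change 1.87 to 2.74). The calls of Elf4, Elf1 and Spib were lost without tetramer library 4, where fewer of all genes were called as well. Their log2 fold changes were then -0.91 (Elf4), -1.06 (Elf1) and -1.99 (Spib). Rises numbered 2 without tetramer library 4 and 1 without tetramer library 5. Over single omissions the log2 fold change ran from -1.64 to -0.88 for Elf4 (adjusted p up to 0.314, lost also without resting library 4), from -1.84 to -1.06 for Elf1 (up to 0.238) and from -2.68 to -1.499 for Spib (up to 0.129, lost also without resting library 5). B cell markers moved the same way as Spib, with the sums given above, and their part was not tested.

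Among 40 relatives of Zbtb16, Hivep3 and Bcl11b with BTB or related zinc fingers, 3 rose and 7 fell. Zbtb32, a repressor induced in activated lymphocytes, rose from 1.45 and 0.214 to 12.9 and 7.89 CPM (log2 fold change 3.59 ± 0.79, adjusted p = 0.00148, range 2.84 to 5.46 over single omissions). The 0.214 CPM in resting library 5 is 1 count, the lowest value that is listed for any gene. Zbtb20 fell from 33.1 and 35.5 to 3.48 and 6.27 CPM (adjusted p = 0.000361), and Bcl6, the repressor known from follicular helper T cells, from 127 and 60.0 to 6.96 and 21.4 CPM (adjusted p = 0.000239). All 3 were called with each library left out, with log2 fold changes of -3.28 to -2.43 for Zbtb20 and -3.74 to -2.07 for Bcl6. Zbtb7a, the most abundant, was at 235 ± 32.2 and 243 ± 40.9 CPM (adjusted p = 0.935). Zbtb38 had 417 CPM in resting library 4 and 99.3 to 136 CPM in the other libraries (adjusted p = 0.0503). It was called lower without resting library 5 (log2 fold change -1.80), with library totals and with a minimum of 5 CPM in 2 libraries, and had a log2 fold change of 0.08 without resting library 4 (adjusted p from 0.000706 to 0.919 over the alternatives). Zbtb7b, which directs CD4 T cell fate, did not pass (0.36 ± 0.49, adjusted p = 0.627). Without tetramer library 4 or 5, 1 of the list rose and 3 fell, and without resting library 5, 4 rose and 4 fell.

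Of 17 HMG box relatives, 1 rose and 1 fell. The histone chaperone subunit Ssrp1 rose from 51.8 and 84.0 to 166 and 166 CPM (log2 fold change 1.29 ± 0.38, adjusted p = 0.0129). With single libraries omitted, Ssrp1 was called only when that was resting library 5 (log2 fold change 0.996 to 1.70 over single omissions, adjusted p up to 0.115). Omitting tetramer library 4 left 0 calls in the list, tetramer library 5 left 0 rises and 1 fall, resting library 4 left 0 and 2, and resting library 5 left 2 and 2. Neither Hmgb1 (adjusted p = 0.290) nor Hmgb2 (adjusted p = 0.939), abundant chromatin proteins, passed, nor did Tox4 (-0.33 ± 0.37, adjusted p = 0.529).

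Of 28 corepressor components that work with PLZF or Bcl11b, 4 rose and 4 fell. Rbbp7, a histone-binding subunit of the NuRD complex, rose from 102 and 98.9 to 330 and 261 CPM (adjusted p = 0.00287), and Gatad2b, another NuRD subunit, rose by 1.51 on the log2 scale (adjusted p = 0.0399). The deacetylase Hdac4 fell from 111 and 62.8 to 30.7 and 30.3 CPM (adjusted p = 0.00795) and the remodeller Chd3 from 763 and 636 to 216 and 370 CPM (adjusted p = 0.0163). Ncor1, a corepressor, did not pass (-0.95 ± 0.38, adjusted p = 0.0612), but was called lower without resting library 5 and with library totals (adjusted p from 0.0119 to 0.419 over the alternatives). Each of these 4 calls was lost when tetramer library 4 was omitted. Those of Gatad2b and Hdac4 were lost also without resting library 4 or tetramer library 5, and that of Chd3 without resting library 4. Gatad2b was not called with library totals. The log2 fold changes over single omissions were 1.40 to 1.73 (Rbbp7, adjusted p up to 0.0540), 1.24 to 1.89 (Gatad2b, up to 0.276), -1.84 to -1.03 (Hdac4, up to 0.0973) and -1.69 to -0.90 (Chd3, up to 0.331). Omitting tetramer library 4 left 0 rises and 1 fall in the list, while tetramer library 5 omitted left 2 and 1, resting library 4 omitted left 2 and 0, and resting library 5 omitted left 2 and 6.

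Of 39 other regulators of T and NKT fate, 10 rose and 3 fell, and the median was 0.41. Egr2, induced by receptor signals and needed for NKT development, rose from 6.63 and 14.5 to 188 and 224 CPM (log2 fold change 4.28 ± 0.45, adjusted p = 1.72e-07). Rbpj, the DNA-binding partner of Notch, rose from 106 and 123 to 700 and 881 CPM (2.79 ± 0.39, adjusted p = 9.47e-06), and Nfatc1 from 252 and 324 to 679 and 874 CPM (1.43 ± 0.37, adjusted p = 0.00604, but 0.0619 without tetramer library 5, the highest over the alternatives, which went down to 0.000862). Klf2, a factor of quiescence and trafficking, fell from 120 and 154 to 7.78 and 16.6 CPM (-3.49 ± 0.45, adjusted p = 3.06e-06). The most abundant, Satb1, did not pass (adjusted p = 0.329). Over single omissions Egr2 ranged from 3.84 to 4.97, Rbpj from 2.62 to 2.96 and Klf2 from -4.13 to -3.03. Tbx21, the factor of NKT1 cells (0.44 ± 0.38, adjusted p = 0.417), and Gata3, the factor of NKT2 cells (-0.84 ± 0.38, adjusted p = 0.102), did not pass. The nuclear receptor Rora fell from 683 and 309 to 62.2 and 106 CPM (-2.56 ± 0.42, adjusted p = 7.63e-05) and was called with each library left out. Maf rose from 52.4 and 43.8 to 122 and 132 CPM (adjusted p = 0.00717), but was not called without tetramer library 4 (0.0511) or 5 (0.0537). Omitting tetramer library 4 left 6 rises and 2 falls in this list.

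Genes that are typically expressed along with Tcf7 and Lef1 in naive-like T cells fell for 12 of 23 tested and rose for 0, with a median of -1.15. This list was written with the falls of Il7r and of related genes in these samples known, so its count is no independent evidence of direction. Il7r, the interleukin 7 receptor, fell from 733 and 438 to 21.5 and 50.8 CPM (log2 fold change -4.02 ± 0.46, adjusted p = 5.47e-07), S1pr1, which guides exit from lymphoid organs, from 28.8 and 33.8 to 1.43 and 4.05 CPM (-3.50 ± 0.59, adjusted p = 9.44e-05), and Als2cl from 117 and 59.6 to 19.0 and 17.8 CPM (-2.26 ± 0.43, adjusted p = 0.000420). These 3 were called with each library left out, with log2 fold changes of -4.76 to -3.51, -4.42 to -2.93 and -2.65 to -1.68. Evl, an actin regulator, fell from 837 and 469 to 238 and 229 CPM (adjusted p = 0.00565) and was called only when resting library 5 was the one left out (-1.82 to -0.99, adjusted p up to 0.0898). Cd28, the costimulatory receptor, did not pass (adjusted p = 0.387). Without tetramer library 4, 4 members fell, and 2 rose without resting library 5. The lower sums of CD8 T cell markers (mostly Cd8b1) and B cell markers given above move with this list too. Their part was not tested.

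**Figure D4:**
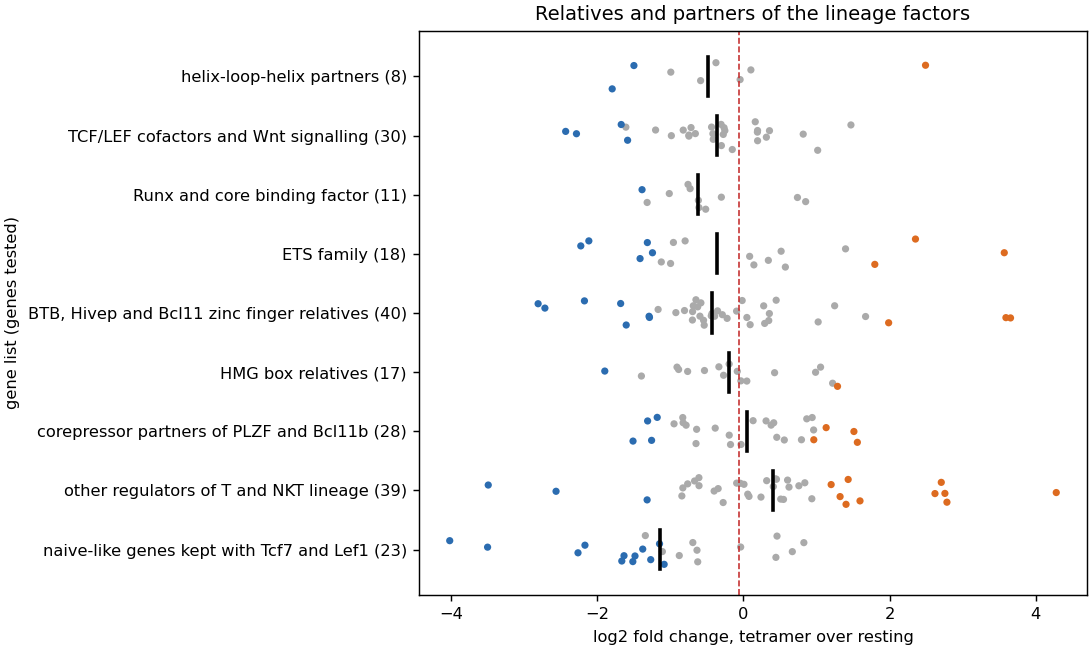
Change on the log2 scale (tetramer over resting) of the tested genes in 9 lists of relatives and partners, orange where it rose, blue where it fell and grey where it passed no threshold, with a black bar at each list's median and a dashed red line at the median of all genes tested (-0.06). The list of genes kept with Tcf7 and Lef1 has its median at -1.15 and the list of other T and NKT regulators at 0.41.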

How the data were processed

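The deposited table lists, for each gene symbol, the authors' read counts as whole numbers. Build mm9, Bowtie2 and DESeq2 are named in the submitters' processing notes. No source used here gives the counter, annotation or use of strand. The table has 12021 rows and no count below 1. Genes without a count in some library were therefore not analysed, nor was Tmem138, where 1 cell is not a number. No column belonged to another series.

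Columns were matched to groups by name. The test was edgeR 4.0.16 under R 4.3.3 (default expression filter, TMM scaling, quasi-likelihood F test, Benjamini-Hochberg adjustment over 11312 genes, threshold 0.05). The fit has 2 residual degrees of freedom and a common biological coefficient of variation of 0.322. It was also run on simulated counts with a single common dispersion and upward changes only, which gives no error rate for these data. Standard errors come from the F statistic. DESeq2 1.42.0, limma 3.58.1 and the other alternatives appear in the closing section. Precision at low counts is set by library totals of 4168438 to 5495521.

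The members and all lists were chosen with earlier results of these data known. The text names the 10 members and, per list of relatives, up to 3 called genes with the largest change (mean of at least 5 CPM, groups not overlapping) and the 2 most abundant, or, with no call, that of lowest p. It also names the 3 nearest profiles to Zbtb16, Tcf7 and Id2. The E proteins, Runx and Hivep paralogs, Ctnnb1, Zbtb7b, Tox4, Tbx21, Gata3, Rora, Maf and markers other than the most abundant were named after their values were seen. A few genes the rule took are not reported here.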

Additional observations from a re-analysis of the deposited data

How the results depend on the processing

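The fold changes of 8 of the 9 members tested kept their sign under every alternative run: RLE factors, library totals, DESeq2, limma-voom, no filter, a minimum of 5 CPM in 2 libraries (which Tox did not reach), prior counts of 0.5 and 5, the replicate block and each library left out. The exception was Ets1, at -0.154 with library totals and from -0.0875 (without tetramer library 5) to 0.356 (without tetramer library 4) when single libraries were omitted. With library totals 2250 of all genes were lower instead of 1366 (higher: 1193 instead of 1620). Tested against a fold of 1.5, 785 were lower. Leaving out single libraries gave 622 to 1629 genes higher and 313 to 1488 lower, and 10 to 23 relatives higher and 13 to 42 lower, with the lowest counts without tetramer library 4; the lone library of an arm is then assumed to vary like the other group. Of 29 called relatives that the naming rule took, 12 stayed called under every alternative run on them. The column numbers 4 and 5 are in no label, and deviations of same-numbered libraries correlated at 0.0518. With them as a replicate block, 1693 genes were higher and 1468 lower, and 21 relatives higher and 41 lower. Depth is low for Id3 and Tox, with 5 and 32 counts in the resting libraries together, and for Tcf7, with 28 in the tetramer libraries together.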
